A study of Apostichopus japonicus with 9 samples.

Results

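The respiratory tree is the branched organ, opening into the cloaca, through which a sea cucumber exchanges gas with pumped sea water. The comparison described here set animals of Apostichopus japonicus held at a moderately lowered dissolved oxygen of 4 mg/L (DO4), reached by bubbling nitrogen, against animals held at 8 mg/L (DO8, the control), both kept so for 3 days. Its members were the 3 libraries titled DO4 and the 3 titled DO8, 6 of the 9 libraries of the series. The other 3 came from animals at 2 mg/L (DO2, the level that the submitters call hypoxia). Each library was made from poly(A) RNA of 3 animals pooled in equal amounts, so variation between animals was averaged within a pool. The labels give no tank, sex or age, so p-values here reflect only how much pools varied, and a difference between tanks and one between oxygen levels cannot be told apart.

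In animals, low oxygen is sensed largely through the hypoxia-inducible factor HIF, whose alpha subunit is hydroxylated and degraded when oxygen is plentiful and accumulates when it is scarce. Its targets in many animals include glycolytic enzymes, glucose transporters and the prolyl hydroxylases that mark HIF itself. The deposited tables give gene model identifiers and no gene names, and 0 of their 27214 identifiers matched the 30661 genes of the RefSeq table for this species. The genes of this pathway, and marker genes of the tissue, could therefore not be picked out, and models are described by their level, length, position in the numbering of a scaffold and agreement among pools.

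The DO4 libraries held 1536327, 2515330 and 3427221 expected counts and listed 17420, 21024 and 21198 models, against 3478593, 3061618 and 2524054 counts and 20458, 20945 and 19786 models in the DO8 libraries. DO4 library 1 was thus the shallowest, and its TMM factor of 0.771 stood below the other 5, which ran from 1.07 to 1.27. The 100 most abundant models of each library took 39.4% to 52.6% of the counts in DO4 and 37.2% to 41.7% in DO8. None of the 5 whole-library measures examined separated the groups, with p of 0.4 to 1 by an exact two-sided permutation test whose smallest possible p is 0.1 (adjusted p = 1 for each).

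The 3 lowest p-values belonged to transcripts that were plentiful in all 3 DO8 pools and scarce in all 3 DO4 pools. The first was evm.model.scaffold209.3, at means of 7.11 CPM in DO4 and 253 CPM in DO8. CPM stands for a library's counts divided by its TMM-corrected total and put on a common scale. Among the 10 transcripts of smallest p in each direction, all 10 lower in DO4 were over 4-fold by the fit. Of the 10 higher in DO4, 6 were over 4-fold. No model passed the test after adjustment: edgeR's quasi-likelihood test called 0 of 13933 models (0%) between DO4 and DO8 at an adjusted p under 0.05. At an unadjusted p under 0.05 it found 531 models higher in DO4 (3.81% of those tested) and 657 lower (4.72%), a balance that upper-quartile factors turned to 688 higher and 562 lower. DESeq2, given all models with any count, called 125 of the 26806 that had a p-value (0.466%), 32 higher and 93 lower. Its default filter on mean count was left on, so its adjustment need not cover all 26806. Of these 125, edgeR had tested 121, each at an unadjusted p under 0.05, and the DO4 and DO8 libraries of 116 did not overlap. A small DESeq2 p on the same libraries makes both likely, so neither is separate evidence. Over all tested models, 8.53% had an unadjusted edgeR p under 0.05 and 15.8% did not overlap. Limma on log2(FPKM + 1) called 3 of 18650 (0.0161%), all lower. The quartiles of the log2 fold change were -0.48 and 0.60, and 1 in 20 models lay below -1.63 and 1 in 20 above 1.54. The median standard error was 0.62, so that for most models a difference of 2-fold lay within 2 standard errors. In bulk tissue, fewer cells of a type and less RNA per cell cannot be told apart.

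**Figure D1:**
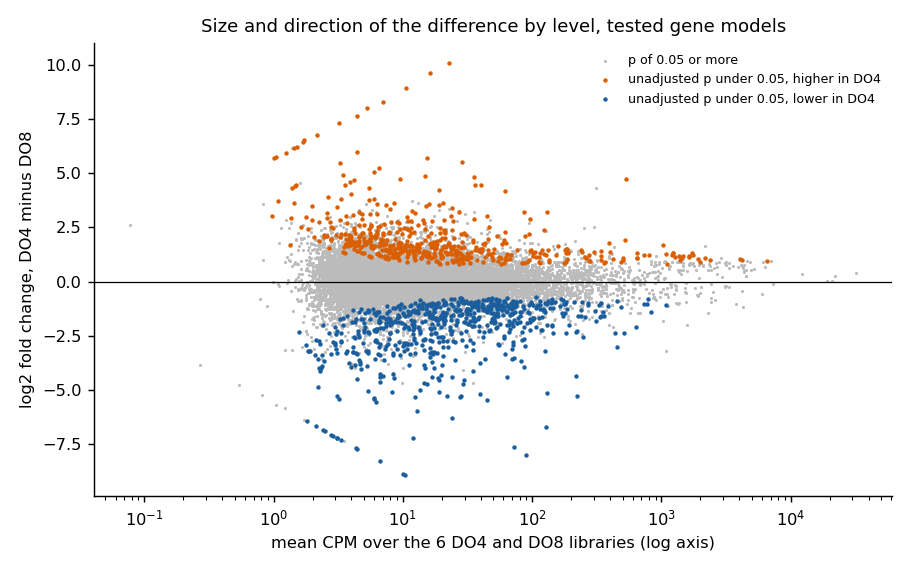
Each point is 1 of the 13933 tested gene models, with its mean CPM over the 6 libraries on a log x axis and its log2 fold change (DO4 minus DO8) on the y axis; orange marks the 531 models higher and blue the 657 lower in DO4 at an unadjusted p under 0.05. The slanted lines of points at the edges are models with a count in 1 group and few or none in the other, whose fitted fold change is no measured ratio.

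The model with the smallest p in either direction was lower in DO4. Model evm.model.scaffold209.3 (678 bases) had 5.96, 6.04 and 9.34 CPM in DO4, against 274, 197 and 287 CPM in DO8. The lowest DO8 library lay 21.1-fold above the highest DO4 library. The means were 7.11 ± 1.93 CPM in DO4 and 253 ± 48.6 CPM in DO8 (SD, n = 3 each), a 35.5-fold lower mean in DO4 that stayed 32.8-fold to 42.1-fold lower with any 1 of the 6 libraries left out. Its log2 fold change was -5.12 ± 0.61 (SE), with an edgeR adjusted p of 0.133. It passed the threshold in 7 of 20 alternative fits, among them DESeq2 and an edgeR fit of just these groups, and its adjusted p over the 20 ran from 5.12e-13 to 0.516. The DO2 libraries held 42.6, 55.9 and 167 CPM, each above every DO4 library. The log2 difference of DO2 from DO4 was 3.61 ± 0.58 and did not pass the threshold (edgeR adjusted p = 0.632). The model was chosen for low DO4 values against DO8, which by itself favours DO2 above DO4.

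The next tested model on that scaffold, of 924 bases, had 6.81, 0 and 1.87 CPM in DO4, against 76.6, 271 and 414 CPM in DO8. These groups did not overlap either. The tested models on either side of this pair stood at 3.02 CPM or less on average in both groups, with DO4 and DO8 overlapping. None of the 6 expected counts of evm.model.scaffold209.3 was a whole number, as happens when reads are divided among models, so its own level is uncertain.

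The most abundant model among those lower in DO4 with no overlap and an unadjusted p under 0.05 was evm.model.scaffold637.13 (1710 bases), the model of rank 137 by mean level. It had 370, 845 and 870 CPM in DO4, against 1559, 1694 and 1124 CPM in DO8. DO4 library 1 was the lowest of the 6, and the nearest libraries of the groups differed by 1.29-fold. The log2 fold change was -1.07 ± 0.39 (SE; edgeR adjusted p = 0.544). The DO2 libraries, at 1312, 1370 and 1076 CPM, lay above all 3 DO4 libraries, but that difference did not pass the threshold either (edgeR adjusted p = 0.971). Here too the choice for low DO4 values favours DO2 above DO4.

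Among models higher in DO4, evm.model.scaffold1207.6 (2871 bases) had the smallest p. It stood at 29.8, 24.8 and 21.3 CPM in DO4, against 4.6, 5.68 and 6.99 CPM in DO8. The pools of each group were close together, and the groups were 3.04-fold apart at their nearest. The log2 fold change was 2.12 ± 0.41 (SE; edgeR adjusted p = 0.384). With 21.3, 17.4 and 12.1 CPM in DO2, the highest DO2 library reached the lowest DO4 library (edgeR adjusted p = 0.971 for DO2 against DO4). The model numbered just before it, of 555 bases, had 68.9, 74.0 and 56.8 CPM in DO4, against 17.0, 20.8 and 21.0 CPM in DO8. No expected count of either model was whole in the 6 libraries, so reads may be divided between them or with other models.

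The most abundant model higher in DO4 by the same rule was evm.model.scaffold267.12 (1476 bases), of rank 8 by mean level, whose expected counts were whole numbers in all 6 libraries. It had 13758, 5504 and 6515 CPM in DO4, against 4850, 4132 and 4460 CPM in DO8. DO4 library 1 stood far above the other two DO4 libraries, which exceeded the highest DO8 library by as little as 1.14-fold. The ratio of means was 1.92, and 1.34 without DO4 library 1. The log2 fold change was 0.94 ± 0.40 (SE; edgeR adjusted p = 0.574). The DO2 libraries, at 6742, 8699 and 7895 CPM, lay within the range of DO4 (edgeR adjusted p = 0.99 for DO2 against DO4). A model of 1302 bases 3 numbers further on the scaffold had the same high DO4 library 1, with 2452, 803 and 980 CPM in DO4, against 853, 799 and 989 CPM in DO8.

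**Figure D2:**
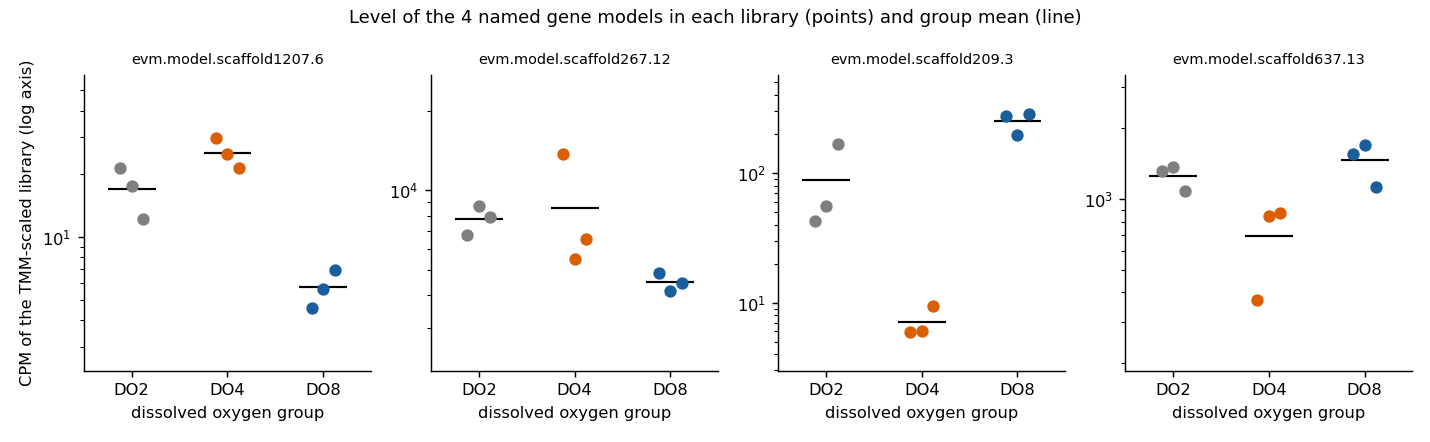
Points show the CPM of each named model in each of the 9 libraries on a log axis, with the group mean as a line, for DO2 (grey), DO4 (orange) and DO8 (blue). Model evm.model.scaffold209.3 has its 3 DO4 libraries between 5.96 and 9.34 CPM and its DO8 libraries between 197 and 287 CPM, while in evm.model.scaffold267.12 and evm.model.scaffold637.13 DO4 library 1 stands apart from the other two DO4 libraries.

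The 10 models with the smallest p in each direction differed in size. The 10 lower ones had log2 fold changes from -5.28 to -2.19, all 10 over 4-fold by the fit. The 10 higher ones ran from 1.46 to 5.70, and 6 of them were over 4-fold. In all 20 the groups did not overlap, which a small p makes likely. The lower ones had mean levels of 2.73 to 42.5 CPM in DO4 and 19.1 to 431 CPM in DO8. The higher ones had 8.73 to 196 CPM in DO4 and 0.503 to 71.3 CPM in DO8. Behind evm.model.scaffold209.3 came a model of 1272 bases with 11.1, 6.67 and 15.4 CPM in DO4, against 388, 390 and 516 CPM in DO8. The model next in order, of 1302 bases, had 4.26, 6.04 and 1.40 CPM in DO4, against 58.7, 90.0 and 50 CPM in DO8. Both were thus scarce in all 3 DO4 pools and plentiful in all 3 DO8 pools.

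Among the higher ones, a model of 699 bases had 57.9, 17.5 and 14.5 CPM in DO4, against 0, 0 and 1.75 CPM in DO8, with most of its mean coming from DO4 library 1. The sixth by p, of 1458 bases, had 230, 176 and 182 CPM in DO4, against 69.0, 73.5 and 71.3 CPM in DO8. It was 2.75-fold higher on average. The tenth by p, of 3393 bases, had 23.0, 90.6 and 11.9 CPM in DO4, against 5.14, 5.68 and 4.54 CPM in DO8, so its DO4 pools ranged more widely than the nearest libraries of the groups differed.

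**Figure D3:**
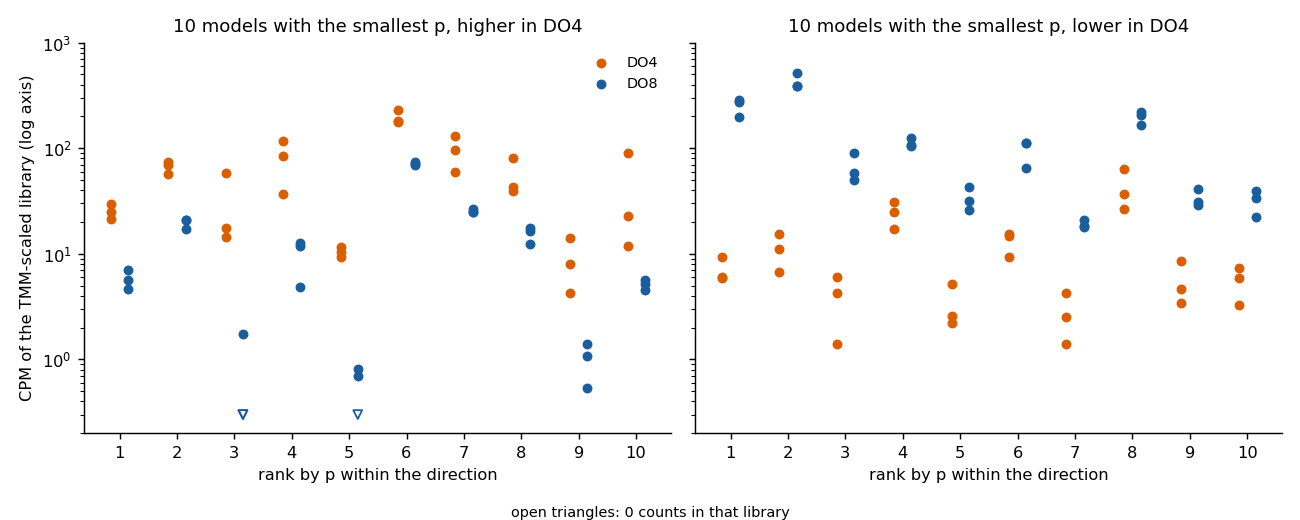
CPM (log axis) of the 10 models with the smallest p in each direction, ranked from left to right, in the 3 DO4 libraries (orange, left) and the 3 DO8 libraries (blue, right); open triangles mark a library with 0 counts. The 10 lower models have DO4 means of 2.73 to 42.5 CPM and DO8 means of 19.1 to 431 CPM, and no model shown overlaps between groups.

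Over all tested models, the 3 DO4 libraries lay above every DO8 library in 973 (6.98%) and below every DO8 library in 1226 (8.8%), together 15.8%. Upper-quartile factors turned this balance, with 1202 above and 1046 below. Most of these gaps were narrow. The nearest libraries of the groups were over 2-fold apart, on log2 CPM with a prior count of 2, in 49 of the models above and 127 of those below. They were over 4-fold apart in 5 above and 27 below. Large fold changes were often not shared by the pools. Of 336 models with a fitted change over 4-fold higher in DO4, 121 had all DO4 libraries above all DO8 libraries, and of 432 models over 4-fold lower, 234 had all DO4 libraries below. In the other models past 4-fold at least 1 DO4 pool reached the range of DO8.

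The DO4 pools resembled one another less than the DO8 pools did. Pearson's r of log2 CPM over the 13933 models, a description with no test, ran from 0.706 to 0.771 between DO4 libraries and from 0.83 to 0.835 between DO8 libraries. Between DO2 libraries it ran from 0.756 to 0.781, so agreement below that of the DO8 pools was not particular to DO4. Between a DO4 and a DO8 library it ran from 0.719 to 0.789, with a mean of 0.763, against a mean of 0.742 among DO4 libraries. A DO4 pool was therefore about as close to the control pools as to another DO4 pool. The SD of log2 CPM was larger among the DO4 libraries than among the DO8 libraries in 9563 models (68.6%), with medians of 0.72 in DO4 and 0.46 in DO8.

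Without DO4 library 1, the remaining DO4 pair, libraries 2 and 3, had an r of 0.771, still below every DO8 pair. In DO4 libraries 1, 2 and 3, 42.7%, 30.4% and 37.3% of models were over 2-fold from the mean of the other two DO4 libraries, while in DO8 libraries 1, 2 and 3 the shares were 21.0%, 20.2% and 22.6%. With every library thinned to 1536295 counts, over the 11315 models then tested, the shares were 38.4%, 27.0% and 34.9% in DO4 and 18.9%, 18.2% and 19.9% in DO8. Thinning made the totals equal but not the TMM factors, so depth over the scarcer models of DO4 library 1 still differed. One distant pool also raises the shares of the other two, whose means include it. An SD over 1.5 log2 units occurred in 1957 models among DO4 libraries and 997 among DO8 libraries. DO4 library 1 was the farthest of the 3 in 990 of these 1957, DO4 library 3 in 587 and DO4 library 2 in 380, whereas the 997 were divided 329, 325 and 343 among the DO8 libraries.

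**Figure D4:**
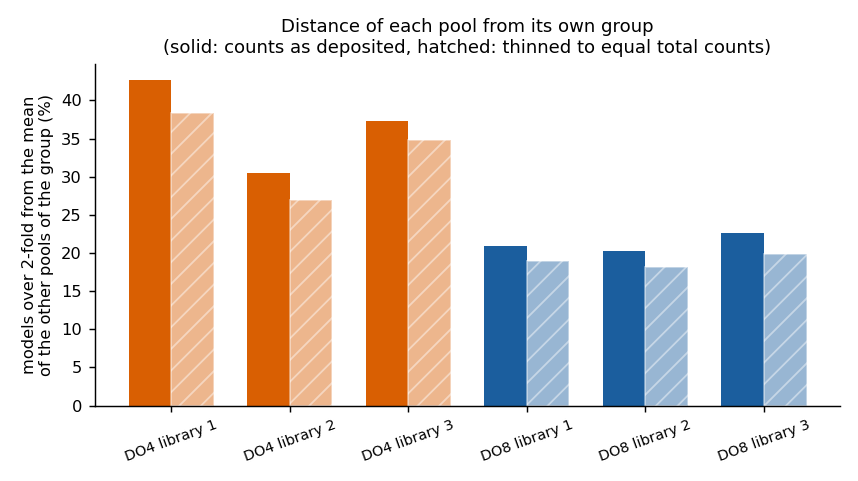
Share of models (y axis, percent) over 2-fold from the mean of the other two pools of the same group, for each DO4 (orange) and DO8 (blue) library, with counts as deposited (solid) and thinned to equal total counts (hatched). All 3 DO4 libraries, at 30.4% to 42.7%, exceed all 3 DO8 libraries, at 20.2% to 22.6%, and the order of the groups is the same with thinned counts.

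Set against the mean of the DO8 libraries, all 3 DO4 pools were above it in 2547 models (18.3%) and below it in 2817 (20.2%). In 8569 models (61.5%) the DO4 pools fell on both sides; no reference value for these shares was computed. DO4 library 1 was the one alone on its side in 3606 of these, DO4 library 3 in 2594 and DO4 library 2 in 2369.

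The balance of directions was set beside level. The tested models were put into 4 classes of equal size by mean CPM over the 6 libraries. In the highest class, 30.3 CPM and up, 143 were higher in DO4 (4.11%) and 272 lower (7.81%) at an unadjusted p under 0.05. In the lowest class, up to 5.75 CPM, 125 were higher (3.59%) and 93 lower (2.67%). Both balances depended on the processing. In the highest class, upper-quartile factors gave 209 higher and 227 lower, and leaving out DO4 library 2 gave 253 and 253, while leaving out DO4 library 1 gave 133 and 380. In the lowest class the balance turned with no filter on low counts (96 higher, 98 lower), with the replicate block (66 and 79), without DO4 library 2 (93 and 101), DO4 library 3 (67 and 75) or DO8 library 3 (84 and 86), and by limma, which gave 57 higher and 107 lower on log2(FPKM + 1). A turn from more higher models in the lowest class to more lower ones in the highest was therefore not stable. The lower share itself was greater in the highest class in each edgeR and limma fit but that without DO4 library 2. It went from 42.7% to 65.5% as reported, and from 52.1% to 50% without DO4 library 2. On groups that did not overlap, 259 models of the highest class lay above in DO4 (7.44%) and 481 below (13.8%), against 6.98% and 8.8% of all tested models; these class counts were not computed under other scalings.

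The spread within groups narrowed with level more in DO8 than in DO4. The median SD of log2 CPM was 0.88 in DO4 and 0.63 in DO8 in the lowest class. In the highest class it was 0.64 in DO4 and 0.32 in DO8. In that class the DO4 SD was the larger in 75.6% of models, against 63.7% in the lowest class, so the wider spread of DO4 was not confined to scarce transcripts. The median standard error of the log2 fold change was 0.86 in the lowest class and 0.46 in the highest.

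**Figure D5:**
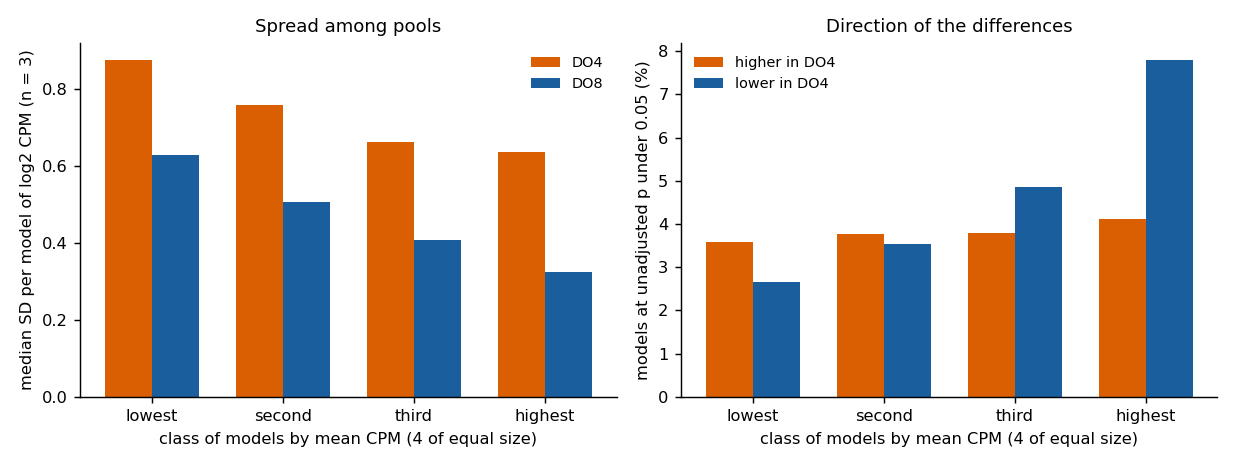
Left, the median SD of log2 CPM among the 3 DO4 (orange) and the 3 DO8 (blue) libraries in each of the 4 classes of models by mean CPM; right, the percentage of models at an unadjusted p under 0.05 that were higher (orange) or lower (blue) in DO4. The DO4 SD exceeds the DO8 SD in all 4 classes, and in the highest class 7.81% of models were lower and 4.11% higher, a balance that was 209 higher and 227 lower in number with upper-quartile factors.

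Of the 100 models with the highest mean CPM in DO8, 7 were higher (7%) and 1 lower (1%) in DO4 at an unadjusted p under 0.05. The shares over all tested models were 3.81% and 4.72%. Between groups 87 of the 100 overlapped, against 11734 of the 13933 tested models. Of the 1000 with the highest mean CPM in DO8, 50 were higher (5%) and 116 lower (11.6%), and 746 overlapped. Such a choice by control level favours models lower in DO4. Neither set was counted under other scalings. The 100 with the highest mean in DO8 took 48.4%, 38.7% and 35.8% of the scaled counts in DO4 libraries 1, 2 and 3. In the DO8 libraries they took 41.6%, 36.9% and 38.5%. The groups overlapped, and DO4 library 1 was the highest. All of the 10 models with the highest mean CPM in DO8 overlapped between groups.

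Longer models differed in opposite directions in the DO4 pools. For the class of longest models, of at least 1584 bases, the median log2 difference from the DO8 mean was -0.18 in DO4 library 1, 0.19 in DO4 library 2 and 0.07 in DO4 library 3. For the class of shortest models, of at most 668 bases it was 0.03, -0.07 and 0.03 in the same libraries. The DO8 libraries stayed between -0.03 and 0.04 in all 4 classes of length. Each DO8 library is part of the mean it was set against, which shrinks its difference. The DO4 and DO8 values are therefore not on equal terms. Models at an unadjusted p under 0.05 made up 9.07% of the shortest class and 7.84% of the longest, near the 8.53% over all models.

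Some models were counted in all 3 pools of 1 group and in none of the other. There were 77 of 27214 with counts in every DO4 library and in no DO8 library, and 124 the other way round. With the libraries thinned to equal totals these numbers were 110 and 111, although equal totals do not equalise depth over scarce models: DO4 library 1 had more of its counts in abundant models and the lowest TMM factor of the 6. Most held few reads, with a median of 8 and 9 counts over the 3 libraries. The largest of the DO4 set (972 bases) had 2, 259 and 222 counts in DO4 libraries 1, 2 and 3, and the largest of the DO8 set (1797 bases) had 1, 184 and 28 in the DO8 libraries, so even these were unevenly shared by the pools. A count of 0 in all 3 libraries allows up to 0.349 CPM in DO4 and 0.293 CPM in DO8 (3 counts over the group, counting error only).

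Models numbered consecutively on a scaffold tended to differ the same way. Over 6253 such pairs, 55.8% of the log2 fold changes had the same sign, with a Pearson's r of 0.19 over pairs. Similar values came from comparisons of 1 pool with the other two of its group, with 53.7% to 56.9% and an r of 0.12 to 0.22 for the DO4 pools and 54.0% to 54.5% and 0.17 to 0.21 for the DO8 pools. Neighbours were thus about as alike between pools of 1 group as between oxygen levels. Among the pairs, 24 had both models higher and 40 both lower at an unadjusted p under 0.05, and 12 had one of each. Where a model was lower by this measure, the next was lower too in 14.2% of 281 cases, against 4.72% of all models. Where it was higher, the next was higher in 8.89% of 270 cases, against 3.81% of all models.

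The longest unbroken run of lower models had 5 members. Their fold changes ran from 2.27-fold to 4.07-fold lower in DO4. The last of the 5 (585 bases), whose counts were whole in all 6 libraries, had 61.3, 49.6 and 49.5 CPM in DO4, against 95.5, 205 and 211 CPM in DO8. In 4 of the 5 the groups did not overlap, and DO8 library 1 was the lowest DO8 library in all 5. The longest run of higher models had 4 members, all without overlap and 2.75-fold to 9.14-fold higher. The model of 621 bases, the one with whole counts throughout, had 43.4, 27.3 and 38.3 CPM in DO4, against 14.6, 13.2 and 10.1 CPM in DO8. Reads divided between neighbours can join such models, and their part in the runs was not tested.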

How the data were processed

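Poly(A) RNA was sequenced on the BGISEQ-500, per the labels' protocols. The deposited tables hold, per the file headers, a model's length, an expected count (the authors' estimated counts, not normalized) and an FPKM computed by the authors. The submitters' processing notes name CASAVA 1.5. The aligner, counter, genome build and annotation were not given in the sources used here. Groups and replicate numbers come from the titles.

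Tables were joined by identifier, unlisted models were set to 0, and counts were rounded. EdgeR 4.0.16 (R 4.3.3; filterByExpr, TMM, robust quasi-likelihood fit, 1 coefficient per group) was fitted to all 9 libraries. The 13933 models kept held 98.9% of counts, and p-values were Benjamini-Hochberg adjusted over them (threshold 0.05). Standard errors come from the log2 fold change and F. A floor is 3 counts, at most 2.55 CPM in DO4 library 1 and 1.05 CPM in any DO8 library, for counting error only. The procedure was run on simulated data with a common dispersion for all models and groups, unlike the wider spread of DO4 described above. Its outcome is not given here and says nothing on how many real differences were missed. Alternatives used DESeq2 1.42.0, limma 3.58.1 on log2 FPKM, other scalings, no filter, thinned counts, a replicate block and left-out libraries.

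The comparison, lists and tests were chosen with earlier results of these data known. Named were, per direction, the model with the smallest p among those without overlap between groups, and the most abundant one without overlap at an unadjusted p under 0.05. Others carry no identifier and were picked by rank or after their values were seen.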

Additional observations from a re-analysis of the deposited data

How the results depend on the processing

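The count of 0 models past an adjusted p of 0.05 was also 0 with upper-quartile factors, with DESeq2's size factors, with thinned counts and with the replicate block, and without DO4 library 1 and DO2 library 3 together (an alternative chosen after seeing the data). EdgeR gave 2 with no filter on low counts and 2 with only DO4 and DO8 fitted. DESeq2 called 125, and limma called 3 on log2(FPKM + 1), 3 on log2(FPKM + 0.1) and 2 without its filter. Leaving out each library gave 0 to 2, with 2 without DO2 library 3. Model evm.model.scaffold209.3 passed in 7 of 20 alternatives: without the filter on low counts (log2 fold change -5.15), with only DO4 and DO8 fitted (-5.09), without DO2 library 3 (-5.13), in DESeq2 (-5.12) and in limma on log2(FPKM + 1), with and without its filter (-5.12 and -5.12), and on log2(FPKM + 0.1) (-5.24). Over all 20 its log2 fold change ran from -5.39 to -5.01 and its adjusted p from 5.12e-13 to 0.516. Model evm.model.scaffold1207.6 passed in DESeq2 alone (2.13, adjusted p = 0.00229; range over its alternatives up to 0.868), and the other two named models in none of the 20. No named model changed direction, which their choice for groups without overlap largely fixes.

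Of models at an unadjusted p under 0.05, those higher in DO4 numbered 886 without the filter on low counts, 918 without DO4 library 1 and DO2 library 3, 879 in DESeq2, 335 and 278 in limma on log2(FPKM + 1) and log2(FPKM + 0.1), and 302 with the replicate block, against 531 as reported. Those lower numbered 990 in limma without its filter, against 657. Leaving out each library gave 370 to 767 higher and 524 to 903 lower; the lowest of each came without DO8 library 3 and DO8 library 2, and the highest of each without DO4 library 1. Upper-quartile factors gave 688 higher and 562 lower, and moved the median log2 fold change of all models to 0.13 from 0.05. Same-numbered DO4 and DO8 libraries deviated together with an r of -0.06, 0.07 and -0.04, so the replicate number is not taken to pair the pools. The numbers of models without overlap and the median SDs kept within 1.5 times of those reported under each alternative run for them, but upper-quartile factors turned the balance of models without overlap, to 1202 above and 1046 below from 973 and 1226. In DO4 library 1, the shallowest, a count of 0 allowed up to 2.55 CPM. The cause was not tested.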

Other observations

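Identifiers fall into kinds by their prefix. Of the 13289 tested models named evm.model, 8.53% had an unadjusted p under 0.05, and of the 381 with the prefix add 8.14%. Whole-number expected counts made up 44.5% of the values above 0 in models at an unadjusted p under 0.05 and 49.5% in the other tested models, over the 6 libraries.

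Of the models counted in 5 of the 6 libraries, 1605 lacked a count only in DO4 library 1, against 219 to 386 for each of the DO4 and DO8 libraries other than that one.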
